A study of Caenorhabditis elegans with 12 samples.

Results

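Arrested larvae of 2 Caenorhabditis elegans strains that carry different alleles of the neuropeptide gene flp-11 were compared directly with each other across all expressed genes. PHX2193 is labelled flp-11(syb2193) and HBR2340 is labelled flp-11(syb1445), and levels of the wild type N2 are given beside them. The comparison uses 8 of the study's 12 libraries, PHX2193 A to D and HBR2340 A to D, and every gene with enough counts in them, 15488 of the 46934 genes in the table. Each library is a biological replicate of whole larvae, collected after 48 h of arrest in M9 buffer, in which eggs released by hypochlorite hatch without food. What the 2 alleles change in the gene, and whether a strain is 1 line, is not said in the labels. The labels give the same arrest time and handling for every group.

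FLP-11 peptides belong to the FMRFamide-like family and are made mainly in RIS, a single interneuron that fires during sleep and quiets movement and feeding through them. When larvae hatch without food they stop development in the first larval stage (L1), keep their precursor cells undivided and live on stores. RIS and sleep are known to help such larvae survive. The FOXO factor DAF-16, which insulin-like signalling holds back, maintains this arrest and raises genes of stress protection. Levels here are counts scaled to library size (CPM), so that they compare a gene between libraries and not different genes.

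Total counts ranged from 23941071 to 30526360 in PHX2193 and from 25642142 to 28865328 in HBR2340. The 2 strains separated on the first principal component (60.9% of the variance), and PHX2193 A and D lay at opposite ends of the second (11.8%, at 34.2 and −38.2). N2 takes no part in the tests here. With all 12 libraries fitted together 3106 genes passed between the 2 mutant strains, and with N2 B left out of that fit 5339, so that N2 B widened the spread. At these depths 3 counts make 0.0897 to 0.125 CPM in PHX2193 and 0.103 to 0.12 CPM in HBR2340. Summed over marker lists, body wall muscle RNA was 5458 to 9158 CPM in PHX2193 and 19820 to 21110 CPM in HBR2340, with 13 of 14 markers lower. Pharynx markers summed to 4746 to 7755 CPM in PHX2193 and 8656 to 10060 CPM in HBR2340, with 3 of 9 lower and 3 higher. Sums overlapped for intestine (1332 to 1951 CPM in PHX2193, 1405 to 2012 CPM in HBR2340), neurons, epidermis, germ cells and oocytes. Whole larvae were sequenced, so fewer cells of a type and less RNA per cell cannot be told apart.

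The gene flp-11 itself had much less RNA in PHX2193 than in HBR2340. Its level (WBGene00001454, chromosome X, 4677334 to 4678129, minus strand, WBcel235) was 19.1, 23.03, 22.4 and 20.2 CPM in PHX2193 A to D, against 107, 112.2, 127 and 140.4 CPM in HBR2340 A to D. No library overlapped between the strains and N2 stood above both. N2 A to D had 211, 370.1, 229 and 211 CPM. The log2 fold change, PHX2193 over HBR2340, was −2.52 ± 0.11 (SE, n = 4 per strain; quasi-likelihood test of edgeR, adjusted p = 2.08e-07 by Benjamini-Hochberg). An exon of flp-11 overlaps the gene WBGene00019345 on the other strand, with the strandedness of counting not given in the sources used here.

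K2P genes make potassium channels that leak at rest and set how excitable a cell is. The family member unc-58 (WBGene00006792, chromosome X, 10104610 to 10133182, minus strand) was lower in PHX2193, with 27.5, 29.6, 27.4 and 22.1 CPM in PHX2193 A to D, against 58.1, 54.4, 68.6 and 61.6 CPM in HBR2340 A to D. The lowest HBR2340 library had more than every PHX2193 library, and PHX2193 stood at the N2 level (median 28.2 CPM). The log2 fold change was −1.19 ± 0.11 (edgeR Benjamini-Hochberg adjusted p = 1.39e-05), and exons of other annotated genes overlap unc-58. The muscle channel gene twk-18 had 29.9, 27.6, 22.7 and 22.5 CPM in PHX2193 A to D, against 49.8, 45.2, 36.4 and 42.9 CPM in HBR2340 A to D, again without overlap. Its log2 fold change was −0.77 ± 0.12 (edgeR Benjamini-Hochberg adjusted p = 0.000651). The channel gene egl-23 had 20.04 ± 2.46 CPM in PHX2193 and 25.7 ± 4.43 CPM in HBR2340 (SD, n = 4 each) and did not pass (−0.37 ± 0.13; edgeR Benjamini-Hochberg adjusted p = 0.0524). It passed with DESeq2 (adjusted p = 0.0371) and without HBR2340 A (edgeR adjusted p = 0.0338).

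Of 45 K2P genes tested, 19 were lower in PHX2193 and 4 higher, with a median log2 fold change of −0.34. The background for such counts is 34.3% of all genes tested called in either direction, 18.1% higher and 16.3% lower in PHX2193, with a median of 0.03. Among the lower ones were twk-48 (−0.85 ± 0.12) and twk-49 (−0.74 ± 0.11). Without HBR2340 C, 12 were lower. The largest rise was in twk-21, which had 128 counts over the PHX2193 libraries and 15 over the HBR2340 libraries, a depth-corrected ratio of 7.91 (4.62 to 14.5, exact 95% interval of counting error only).

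**Figure D1:**
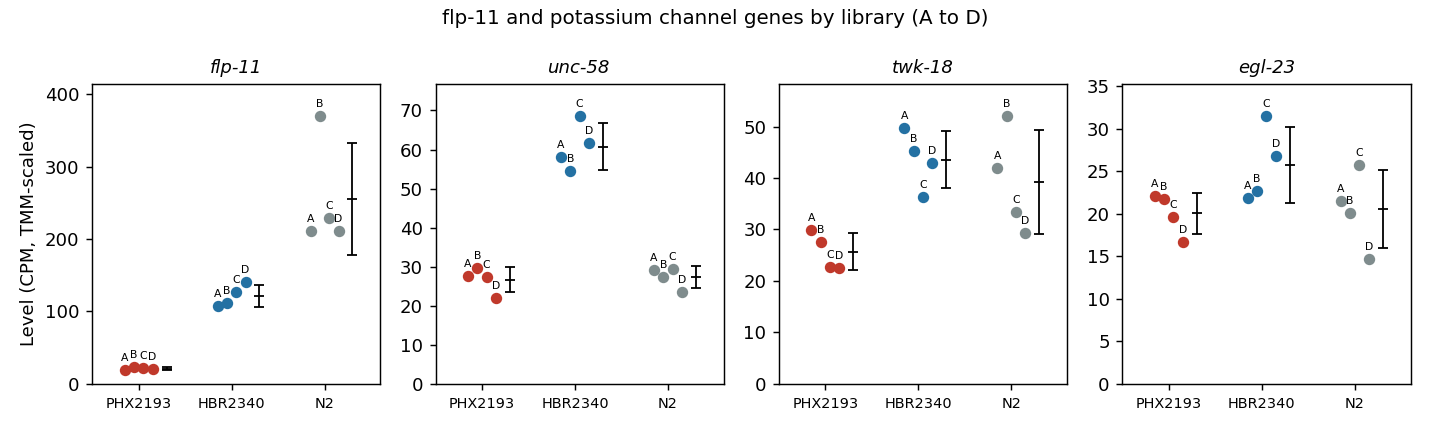
Level (CPM, TMM-scaled, linear axis from 0) of flp-11, unc-58, twk-18 and egl-23 in each PHX2193, HBR2340 and N2 library, marked A to D, with the mean and SD of 4 libraries as the black bar. PHX2193 lies below HBR2340 in every library for the first 3 genes and the strains overlap for egl-23 (means 20.04 and 25.7 CPM).

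Across all genes the strains differed widely. Of 15488 genes, 5316 passed (quasi-likelihood test of edgeR, adjusted p under 0.05 by Benjamini-Hochberg), 2797 higher and 2519 lower in PHX2193. Of the 5316, 2075 changed by less than 1.5-fold. More than 2-fold, 1055 were higher (6.81% of all genes tested) and 790 lower (5.10%), and more than 8-fold, 70 were higher and 69 lower. The libraries of both strains did not overlap in 4836 of the called genes, and in 36.2% of all genes tested.

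Several genes that HBR2340 carried at moderate levels had almost no RNA in PHX2193. D1086.9 (chromosome V, 14104270 to 14106330), a gene with no assigned name, had 0, 3, 4 and 1 counts in PHX2193 A to D and 978, 929, 1270 and 591 counts in HBR2340 A to D. The depth-corrected ratio, HBR2340 over PHX2193, was 508 (258 to 1180, exact 95% interval). For W03B1.3 (chromosome IV, 4332657 to 4336239) the summed counts were 23 in PHX2193 and 2384 in HBR2340, a ratio of 111.8 (74.3 to 177). The gene ant-1.2, of the adenine nucleotide translocases that carry ADP and ATP across the inner mitochondrial membrane, had 19 counts in PHX2193 and 685 in HBR2340, a ratio of 38.9 (24.7 to 65.0). In N2 all 3 were far below HBR2340 as well. D1086.9 had 0.305, 0.172, 0.271 and 1.16 CPM in N2 A to D, above its PHX2193 libraries (0 to 0.1495 CPM), and the N2 medians of W03B1.3 and ant-1.2 were 0.315 and 0.160 CPM.

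Other large falls included genes of known families. The chemoreceptor family gene srw-85 (WBGene00005832, chromosome V, 19429387 to 19431136, minus strand) had 0.915, 1.496, 2.13 and 2.89 CPM in PHX2193 A to D, against 76.2, 83.0, 82.4 and 73.1 CPM in HBR2340 A to D, a log2 fold change of −5.38 ± 0.24 (edgeR Benjamini-Hochberg adjusted p = 6.24e-07). Here N2 stood with HBR2340, at 74.7, 55.6, 64.4 and 76.3 CPM in N2 A to D, so that only PHX2193 was low. Y110A2AL.2, without an assigned name, had 6.91 ± 3.01 CPM in PHX2193 and 311 ± 74.6 CPM in HBR2340 (−5.51 ± 0.33). The thaumatin family gene thn-1 had 3.37, 1.05, 0.972 and 0.639 CPM in PHX2193 A to D, against 19.6, 29.2, 26.04 and 41.9 CPM in HBR2340 A to D, and within PHX2193 library A stood above the others. Its log2 fold change was −4.33 ± 0.48, and −5.05 without PHX2193 A. Further down were the ammonium transporter family gene amt-1 (−3.89; −4.51 with PHX2193 A and D left out), the acyltransferase family gene oac-51 (−3.97), the cuticle collagen gene col-80 (−3.93), and AC3.5 (−3.89; −4.51 with PHX2193 A and D left out), F08H9.4 (−4.98), F16H6.7 (−4.15), R05D7.2 (−3.82) and F40G12.5 (−3.76).

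Among called genes with a mean log2 CPM of 1 or more and no overlap of libraries, the largest rise was in W09C3.7 (WBGene00021114, chromosome I, 4714320 to 4715483, minus strand). This gene with no assigned name had 51.3, 57.4, 56.9 and 79.9 CPM in PHX2193 A to D, against 0.585, 0.891, 1.85 and 1.24 CPM in HBR2340 A to D. The log2 fold change was 5.74 ± 0.27 (edgeR Benjamini-Hochberg adjusted p = 1.08e-06), and N2 libraries ran from 3.32 CPM (N2 B) to 48.8 CPM (N2 C). R08F11.7 had 52.5 ± 17.9 CPM in PHX2193 and 1.49 ± 0.271 CPM in HBR2340 (5.12 ± 0.28). The gene scl-14, of the secreted SCP/TAPS family, had 30.5 ± 6.14 CPM in PHX2193 and 0.907 ± 0.377 CPM in HBR2340 (5.06 ± 0.28). The yolk protein gene vit-6 had 6.66, 7.75, 6.06 and 11.8 CPM in PHX2193 A to D, against 0.516, 0.736, 0.662 and 0.441 CPM in HBR2340 A to D, with every PHX2193 library above every HBR2340 library (3.76 ± 0.27). The chemoreceptor family genes sri-4 (4.69 ± 0.36) and srg-47 (4.53 ± 0.24), the alcohol dehydrogenase gene adh-1 (4.15 ± 0.50) and the acyltransferase-like gene acl-13 (4.08 ± 0.41) rose too. So did ZK218.1 (5.49), Y62F5A.10 (4.8), C09F12.2 (4.73), Y46H3A.5 (4.44) and WBGene00006181 (4.08).

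**Figure D2:**
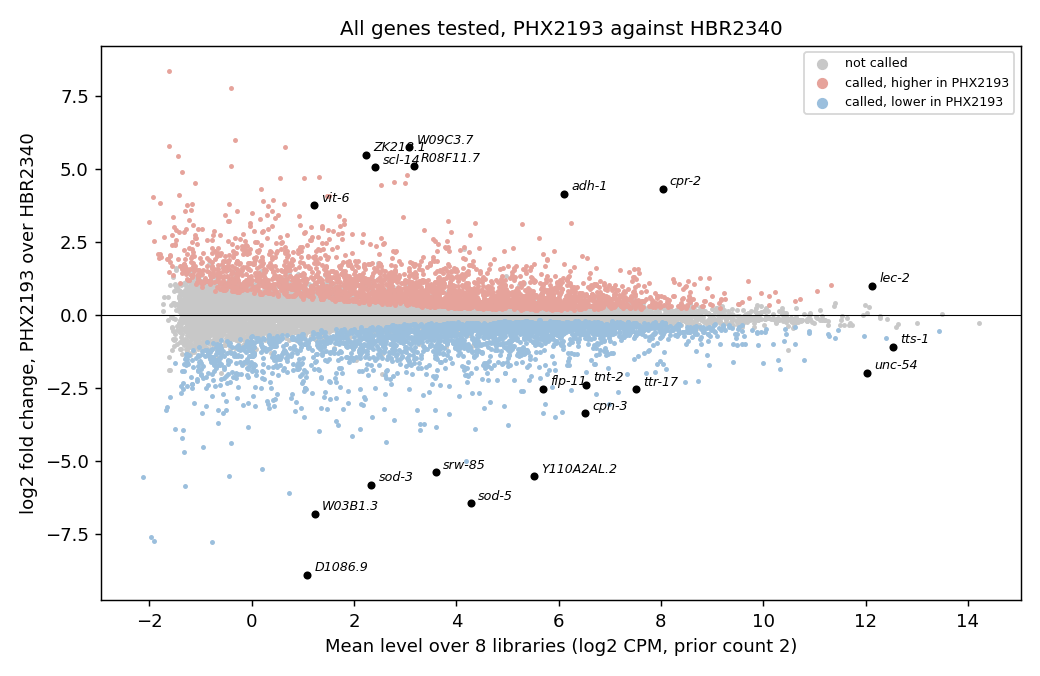
Each point is a gene: mean level over the 8 libraries (log2 CPM, prior count 2) across, log2 fold change of PHX2193 over HBR2340 up, with called genes in colour and 20 genes named. Called genes spread above and below 0 at all levels, with D1086.9 lowest (−8.89) and W09C3.7 among the highest (5.74).

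Among highly expressed genes, the muscle myosin gene unc-54, the long non-coding RNA gene tts-1, tos-1, C30E1.9 and WBGene00014309 were the 5 most abundant that fell. The level of tts-1 was 4484, 3686, 3922 and 3871 CPM in PHX2193 A to D, against 8406, 8090, 9988 and 7370 CPM in HBR2340 A to D, with all PHX2193 libraries lower (−1.09 ± 0.13; edgeR Benjamini-Hochberg adjusted p = 9.66e-05). The 5 most abundant that rose were lec-2, a galectin, srap-1, asp-3, an aspartyl protease, F26F12.3 and F56H9.2. The level of lec-2 was 6948, 6397, 6265 and 5609 CPM in PHX2193 A to D, against 3633, 3453, 2403 and 2943 CPM in HBR2340 A to D (1.01 ± 0.15). For tts-1 and lec-2 no library overlapped between the strains.

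Body wall muscle had the largest share of lower genes among the lists with 12 or more genes tested. The contractile and attachment genes of these cells were lower in PHX2193 in 25 of 29, with none higher, and 14 fell by more than 2-fold. The median log2 fold change was −0.95 over the list and 0.03 over all genes tested. In muscle, myosin filaments pull on actin filaments under the control of the troponins, and attachments pass the force to the basement membrane and cuticle.

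Of the filament proteins, unc-54, the major myosin heavy chain, had 3071, 2253, 1650 and 1499 CPM in PHX2193 A to D, against 7989, 7727, 8982 and 8361 CPM in HBR2340 A to D. No library overlapped, and PHX2193 D was the lowest (−1.97 ± 0.21; edgeR Benjamini-Hochberg adjusted p = 5.64e-05). The calponin-like gene cpn-3 (WBGene00000779, chromosome I, 3987940 to 3988699, plus strand) had 33.4, 35.7, 21.6 and 23.7 CPM in PHX2193 A to D, against 337, 290.2, 272 and 262 CPM in HBR2340 A to D, with no overlap (−3.35 ± 0.18). Among the troponins, tnt-2, a troponin T, had 40.1 ± 5.33 CPM in PHX2193 and 208 ± 11.6 CPM in HBR2340 (−2.38 ± 0.11; edgeR Benjamini-Hochberg adjusted p = 2.61e-07), and tni-1, a troponin I, had 75.2 ± 7.80 CPM in PHX2193 and 177 ± 11.3 CPM in HBR2340 (−1.24 ± 0.09). Of the attachment proteins, unc-52, the basement membrane protein perlecan, had 151, 157, 161 and 109 CPM in PHX2193 A to D, against 433, 447, 509.8 and 454 CPM in HBR2340 A to D, with the strains apart (−1.68 ± 0.13). N2 medians were 3865 CPM for unc-54, 64.9 for cpn-3, 54.4 for tnt-2 and 195 for unc-52, nearer to PHX2193 than to HBR2340 in each case.

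The 4 members that did not pass were the myosin light chain gene mlc-2 (−0.33 ± 0.14), the giant kinase gene ttn-1 (−0.27 ± 0.13), the muscle determination factor hlh-1 (0.25 ± 0.11) and unc-96 (0.31 ± 0.11). With PHX2193 A and D left out, 25 of 29 were lower as well. Of 22 receptors and calcium handling genes of muscle, 5 were lower and 1 higher (27.3% called, against 34.3% of all genes tested, median −0.16). The lower ones included itr-1, the inositol trisphosphate receptor (−0.57 ± 0.08), the nicotinic receptor gene acr-16 (−0.52 ± 0.13) and its chaperone gene ric-3 (−0.37 ± 0.08), and the higher one was unc-49, the GABA receptor that relaxes muscle (0.51 ± 0.09). Without PHX2193 C, HBR2340 C or HBR2340 D, 3 were lower.

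**Figure D3:**
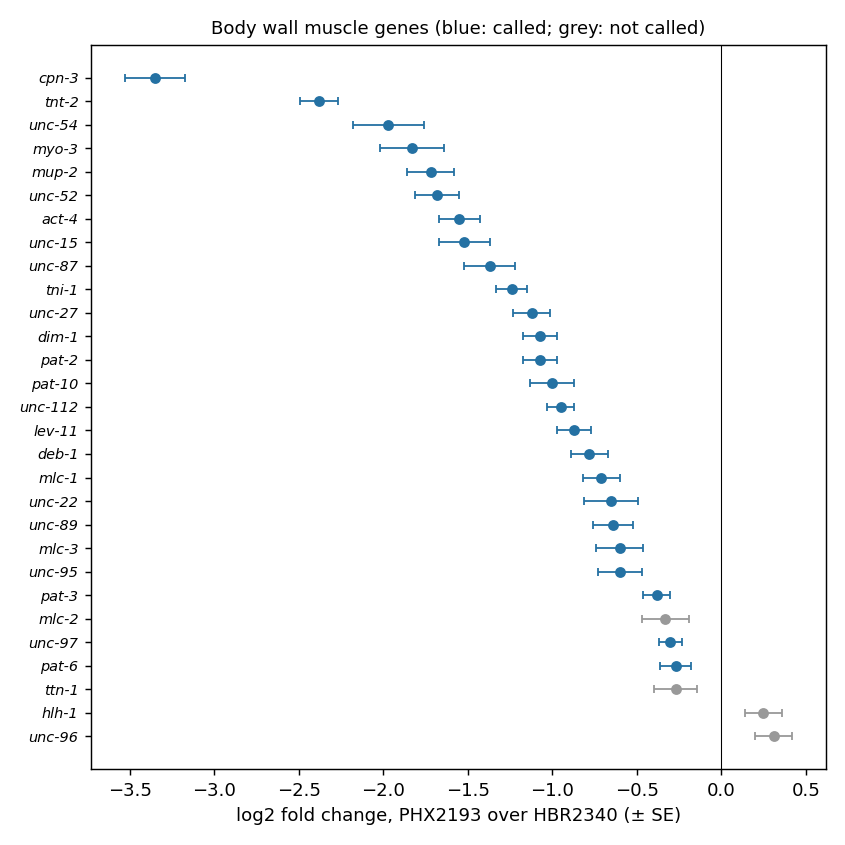
Log2 fold change, PHX2193 over HBR2340, of the 29 body wall muscle genes tested, with its SE as the bar, in blue where called (25 genes) and grey where not (4 genes). All called genes lie left of 0, from cpn-3 (−3.35) at the far left.

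Basement membrane components had 7 of 17 lower and 3 higher (median −0.29). The 7 include unc-52, which is also on the body wall muscle list. The type IV collagen gene emb-9 had 567 ± 144 CPM in PHX2193 and 1126 ± 147 CPM in HBR2340 (−0.99 ± 0.19), and the nidogen gene nid-1 was also lower (−0.77 ± 0.15), while the F-spondin gene spon-1 was higher (0.77 ± 0.10). The 3 higher became 1 without any 1 of 5 libraries (PHX2193 B or C, HBR2340 A, B or D) and 5 without PHX2193 D. Pharynx genes moved in both directions, 3 higher and 3 lower of 9. The pharyngeal myosin gene myo-2 had 2346, 2060, 2539 and 1279 CPM in PHX2193 A to D, against 3208, 3556, 3523 and 3703 CPM in HBR2340 A to D, with PHX2193 D lowest and no overlap (−0.77 ± 0.19). Higher were the troponin genes tni-4 (0.57 ± 0.08) and tnc-2 (0.32 ± 0.08) and the homeobox gene ceh-22 (0.74 ± 0.12). Of the 3 lower, 1 was left without PHX2193 B, HBR2340 B or HBR2340 D. Pharyngeal gland genes of the phat family had 4 of 9 higher, among them phat-3 (1.47 ± 0.21), phat-6 (1.34 ± 0.16) and phat-7 (0.65 ± 0.15), and 1 lower, phat-8 (−1.61 ± 0.17).

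Many genes of stress protection were lower in PHX2193 than in HBR2340. Of 15 genes known to be raised by DAF-16, 8 were lower and 2 higher, the higher ones being the metallothionein gene mtl-2 (0.93 ± 0.13) and the glyoxylate cycle gene icl-1 (2.01 ± 0.39). The median was −0.74. Superoxide dismutases, catalases and peroxidases remove reactive oxygen, and 12 of 19 of their genes were lower and 2 higher (median −0.39). Both lists hold sod-3 and sod-5, so their counts are not independent. The mitochondrial manganese superoxide dismutase gene sod-3 (WBGene00004932, chromosome X, 17092753 to 17094306, plus strand) had 0.458, 0.718, 0.449 and 0.913 CPM in PHX2193 A to D, against 29.8, 39.7, 41.4 and 34.7 CPM in HBR2340 A to D. The strains did not overlap, and the log2 fold change was −5.8 ± 0.20 (edgeR Benjamini-Hochberg adjusted p = 1.53e-07), although exons of other genes overlap sod-3. The copper/zinc superoxide dismutase gene sod-5 had 2.70, 2.96, 1.65 and 1.34 CPM in PHX2193 A to D, against 83.0, 188, 295 and 178 CPM in HBR2340 A to D (−6.43 ± 0.48; edgeR Benjamini-Hochberg adjusted p = 2.84e-05). HBR2340 libraries varied widely among themselves for sod-5, and each still lay far above each PHX2193 library. N2 medians were 2.50 CPM for sod-3 and 4.73 CPM for sod-5, far nearer to PHX2193 than to HBR2340.

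The late embryogenesis abundant gene lea-1, whose protein protects cells during drying, had 209, 192, 202 and 172 CPM in PHX2193 A to D, against 612, 825, 1352 and 922 CPM in HBR2340 A to D (−2.26 ± 0.21). The metallothionein gene mtl-1, which binds heavy metals, had 90.9, 58.7, 57.1 and 58.2 CPM in PHX2193 A to D, against 244, 260.0, 207 and 213 CPM in HBR2340 A to D (−1.81 ± 0.16). For both, all PHX2193 libraries lay below all HBR2340 libraries, and for mtl-1 PHX2193 A was highest of its strain. N2 medians were 256.5 CPM for lea-1 and 113.3 CPM for mtl-1, also nearer to PHX2193. Of the glutathione peroxidase genes, gpx-6 fell (−1.72 ± 0.15) and gpx-3 rose (1.7 ± 0.15). Of the 6 tested genes known to be lowered by DAF-16, 2 were higher and 1 lower. The higher ones were dod-19 (0.79 ± 0.18) and dod-23 (2.86, and 3.5 without HBR2340 A), and the lower was dod-22 (−1.11 ± 0.29).

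Cytosolic heat shock genes had 7 of 20 lower and 2 higher (median −0.14), and all 4 that changed by more than 2-fold were lower. The small heat shock gene hsp-12.6 had 147, 124, 197.6 and 111 CPM in PHX2193 A to D, against 481, 472, 676 and 432 CPM in HBR2340 A to D (−1.84 ± 0.20), and hsp-12.3 had 44.7 ± 17.8 CPM in PHX2193 and 369 ± 33.7 CPM in HBR2340 (−3.05 ± 0.26). The chaperone gene hsp-70 had 7.57, 9.57, 10.2 and 8.52 CPM in PHX2193 A to D, against 50.9, 61.6, 108 and 62.5 CPM in HBR2340 A to D (−2.98 ± 0.23), with HBR2340 C the highest library. N2 medians were 242.1 CPM for hsp-12.6, 100.5 CPM for hsp-12.3 and 15.5 CPM for hsp-70. For each of these genes N2 B stood far above the other N2 libraries. Folding and stress genes of the endoplasmic reticulum went the other way, with 7 of 17 higher and 1 lower (median 0.31), by small steps, as in xbp-1, the unfolded protein response factor (0.31 ± 0.08), the kinase gene pek-1 (0.34 ± 0.09), the disulfide isomerase gene pdi-6 (0.39 ± 0.08) and dnj-27 (0.61 ± 0.11). Without HBR2340 B, 4 were higher. Hypoxia response genes had 4 of 12 lower and 1 higher, the lower ones being the sulfide oxidation genes sqrd-1 (−0.94 ± 0.12) and ethe-1 (−0.71 ± 0.13), the cysteine dioxygenase gene cdo-1 (−1.07 ± 0.18) and cysl-2 (−0.72 ± 0.17).

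**Figure D4:**
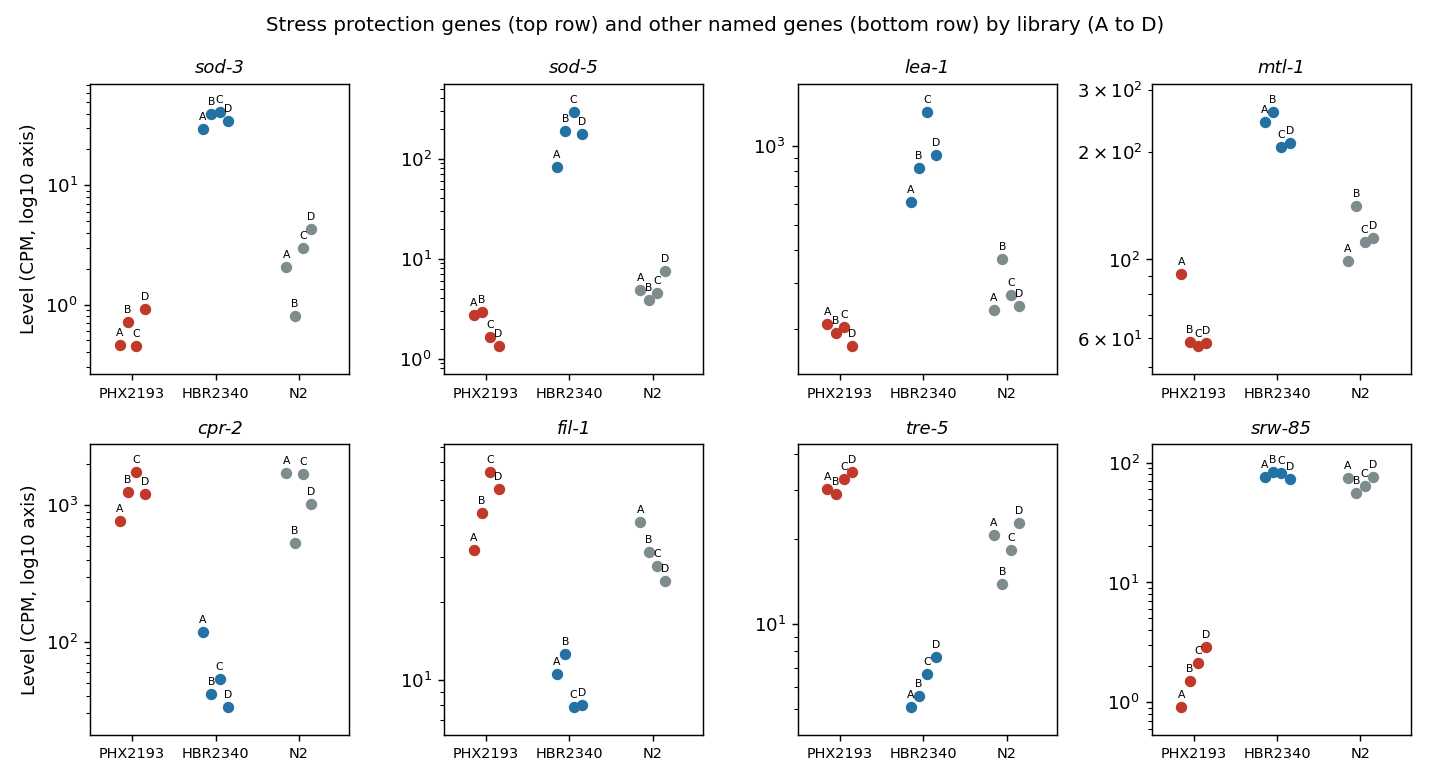
Level (CPM, logarithmic axis) in each PHX2193, HBR2340 and N2 library, marked A to D, of sod-3, sod-5, lea-1 and mtl-1 above and of cpr-2, fil-1, tre-5 and srw-85 below. PHX2193 lies under HBR2340 in the upper 4 genes (sod-3 means 0.634 and 36.4 CPM) and above it in cpr-2, fil-1 and tre-5, and srw-85 is low in PHX2193 alone.

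Insulin-like peptides, which open or close the signal that holds back DAF-16, moved both ways. Of 24 genes tested, 8 were higher and 6 lower (median 0.44). The agonist gene daf-28 had 8.99, 11.4, 13.2 and 9.19 CPM in PHX2193 A to D, against 4.09, 4.18, 3.90 and 3.21 CPM in HBR2340 A to D (1.46 ± 0.16), and ins-11 had 4.24, 8.41, 6.13 and 10.6 CPM in PHX2193 A to D, against 1.41, 0.814, 0.872 and 0.521 CPM in HBR2340 A to D (3.0 ± 0.34). Lower were ins-10, with 12.52, 12.59, 10.8 and 12.8 CPM in PHX2193 A to D, against 28.8, 31.04, 37.2 and 32.7 CPM in HBR2340 A to D (−1.42 ± 0.10), and ins-26 (−1.91 ± 0.29). Libraries of the strains were separate for daf-28, ins-11 and ins-10. Downstream, the receptor pathway had 3 of 18 higher and 3 lower (33.3% called, against 34.3% of all genes tested). The lower ones were the kinases pdk-1 (−1.35 ± 0.12), akt-2 (−0.87 ± 0.11) and akt-1 (−0.44 ± 0.10), while the sirtuin gene sir-2.1 was higher (0.4 ± 0.07). Of 13 genes of the TGF-beta and steroid dauer pathway 2 were higher, the Smad gene daf-14 (0.38 ± 0.08) and the steroid oxygenase gene daf-36 (1.17 ± 0.33).

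Neuropeptide genes other than flp-11 were more often higher than lower. Of 29 FMRFamide-like genes 10 were higher and 1 lower (median 0.14), and of 56 neuropeptide-like genes 20 were higher and 4 lower (median 0.18). The changes were moderate: flp-10 had 81.6 ± 8.14 CPM in PHX2193 and 34.5 ± 1.31 CPM in HBR2340 (1.24 ± 0.09), flp-28 had 160.1 ± 6.13 CPM in PHX2193 and 116 ± 1.9 CPM in HBR2340 (0.46 ± 0.07), and flp-5 (0.61 ± 0.10) and the stress-induced sleep gene flp-13 (0.35 ± 0.08) were also higher. Among neuropeptide-like genes, nlp-67 had 25.2, 30.8, 33.4 and 30.8 CPM in PHX2193 A to D, against 9.29, 10.7, 13.7 and 11.1 CPM in HBR2340 A to D, without overlap (1.42 ± 0.13), and nlp-66 (1.84 ± 0.19), nlp-64 (0.98 ± 0.10) and nlp-7 (0.68 ± 0.07) rose. Peptide receptor genes had 20 of 100 higher and 10 lower (30% called, against 34.3% of all genes tested). Among the higher were dmsr-12 (2.19 ± 0.24), aexr-2 (1.72 ± 0.21), gnrr-3 (1.48 ± 0.15) and npr-20 (0.98 ± 0.11). The 20 became 13 without HBR2340 B, and the 10 became 6 without any 1 of 4 libraries (PHX2193 B or C, HBR2340 C or D). Of 9 genes of peptide processing and release 2 were lower, the convertase gene kpc-1 (−0.25 ± 0.08) and the dense-core vesicle release gene unc-31 (−0.49 ± 0.16). Both lost the call without some single libraries, with edgeR adjusted p of up to 0.0936 and 0.0842.

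Of 21 genes that all neurons use, 28.6% were called, against 34.3% of all genes tested. Lower were 5, among them rab-3 (−0.42 ± 0.08), the tomosyn gene tom-1 (−0.5 ± 0.13) and the synaptojanin gene unc-26 (−0.4 ± 0.11), and unc-119 was higher (0.28 ± 0.07). The 14 neuron markers summed to 2062 to 2624 CPM in PHX2193 and 2554 to 3213 CPM in HBR2340. For RIS and GABA neurons, 3 of 15 genes were lower and 1 higher, the lower ones being the GABA transaminase gene gta-1 (−0.64 ± 0.13), the vesicle sorting gene unc-46 (−0.53 ± 0.14) and the GABA-gated channel gene lgc-35 (−0.56 ± 0.16), whose call ended without HBR2340 C or D (edgeR adjusted p = 0.0583 and 0.0555). With PHX2193 A and D left out, 1 of 15 was lower. Genes of biogenic amines had 6 of 12 higher and none lower (median 0.5). The phenylalanine hydroxylase gene pah-1 had 479, 482, 509 and 398 CPM in PHX2193 A to D, against 231.4, 223, 225 and 212 CPM in HBR2340 A to D, more in every PHX2193 library (1.06 ± 0.10). Tyrosine decarboxylase, tdc-1 (0.8 ± 0.10), the serotonin transporter, mod-5 (0.62 ± 0.09), and GTP cyclohydrolase, cat-4 (0.56 ± 0.10), were higher as well. Other genes of amine synthesis and transport did not pass. These were cat-1 (−0.3 ± 0.16), cat-2 (−0.15 ± 0.21), dat-1 (−0.18 ± 0.13) and bas-1 (0.03 ± 0.12), so the rise was not general.

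In sensory neurons, cilium transport genes had 10 of 34 lower and 1 higher (median −0.21), with bbs-5 (−0.45 ± 0.07), daf-10 (−0.57 ± 0.10), osm-6 (−0.48 ± 0.10) and nphp-4 (−0.69 ± 0.15) among them. With PHX2193 A and D left out, 6 were lower. Guanylate cyclases were split, 8 of 33 higher and 7 lower. The soluble cyclase gene gcy-36, of oxygen-sensing neurons, had 11.98, 12.9, 15.1 and 10.04 CPM in PHX2193 A to D, against 5.09, 4.50, 4.36 and 4.65 CPM in HBR2340 A to D (1.42 ± 0.14), and gcy-34 had 4.95, 4.31, 4.04 and 3.74 CPM in PHX2193 A to D, against 10.7, 9.96, 11.3 and 9.46 CPM in HBR2340 A to D (−1.29 ± 0.13), both without overlap and in opposite directions. The gene gcy-15 (0.66 ± 0.08) and gcy-21 (0.65 ± 0.08) were higher. The chemoreceptor families, 1310 genes of which 418 had enough counts, had 86 higher and 44 lower (median 0.20), with srxa-10 (3.48 ± 0.29) among the higher. Of the 418, 31.1% were called, against 34.3% of all genes tested. The share higher was 20.6%, near the 18.1% over all genes tested.

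Digestive and defence genes formed large families with changes in both directions. Aspartyl, cathepsin and lysosomal carboxypeptidase genes had 15 of 36 higher and 6 lower (median 0.36). The cathepsin B-like gene cpr-2 (WBGene00000782, chromosome V, 16532936 to 16534100, minus strand) had 764, 1261, 1742 and 1209 CPM in PHX2193 A to D, against 118, 41.2, 53.8 and 33.5 CPM in HBR2340 A to D. Libraries differed by more than 2-fold within each strain (4.33 ± 0.46; edgeR Benjamini-Hochberg adjusted p = 0.000179). They were separate between strains, which the choice of the largest rises required. Its relative cpr-4 had 15.8, 43.8, 28.8 and 48.3 CPM in PHX2193 A to D, against 1.79, 2.02, 1.05 and 0.922 CPM in HBR2340 A to D (4.55 ± 0.42), asp-12 was higher (1.08 ± 0.13) and the cathepsin D-like gene asp-4 was lower (−1.2 ± 0.13). The 6 lower became 3 without HBR2340 B. Of 14 intestine genes 5 were higher and 1 lower, the higher ones including elt-2, the GATA factor of intestinal identity (1.15 ± 0.18), the sodium/proton exchanger gene nhx-2 (1.35 ± 0.18) and the esterase gene ges-1 (0.53 ± 0.08). The lower one, the intermediate filament gene ifc-2 (−0.34 ± 0.10), lost its call without PHX2193 C or HBR2340 D (edgeR adjusted p = 0.0508 and 0.0552). With PHX2193 A and D left out 3 were higher. Yolk genes vit-3 (1.33 ± 0.20), vit-6 and vit-2 were all higher, at 10.28 to 16.52 CPM in sum in PHX2193 and 2.092 to 2.945 CPM in HBR2340. The call of vit-2 ended without any 1 of 6 libraries (edgeR adjusted p of 0.0744 to 0.129).

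C-type lectins, many of which respond to microbes, had 40 higher (38.5% of those tested) and 12 lower (11.5%), with a median of 0.32. The gene clec-24 had 2.62, 4.28, 6.09 and 6.18 CPM in PHX2193 A to D, against 0.310, 0.426, 0.209 and 0.281 CPM in HBR2340 A to D (3.95 ± 0.34), and clec-12 (2.11 ± 0.17) and clec-265 (1.72 ± 0.11) rose, while clec-198 fell (−2.14 ± 0.20). Lysozymes and saposin-like proteins, which attack microbial walls and membranes, had 8 of 32 higher and 11 lower. The invertebrate-type lysozyme gene ilys-4 had 8.90, 10.98, 8.41 and 13.1 CPM in PHX2193 A to D, against 76.4, 85.05, 91.2 and 102 CPM in HBR2340 A to D (−3.1 ± 0.14), lys-1 was lower (−1.35 ± 0.13), and lys-5 (3.72 ± 0.33) and spp-22 (1.18 ± 0.12) were higher. Every HBR2340 library had more ilys-4 RNA than every PHX2193 library. Epidermal antimicrobial peptides had 13 of 35 lower and 7 higher (median −0.28), with cnc-11 at 6.28 ± 0.822 CPM in PHX2193 and 42.6 ± 7.87 CPM in HBR2340 (−2.76 ± 0.14), nlp-28 (−2.15 ± 0.16) and fipr-13 (−2.66 ± 0.24) lower and fipr-1 higher (1.62 ± 0.14). Infection response genes of the irg and pals families had 8 of 33 higher and 4 lower (36.4% called, against 34.3% of all genes tested). Here pals-40 (1.85 ± 0.19) and pals-32 (1.53 ± 0.12) rose and pals-26 fell (−1.51 ± 0.14). Without PHX2193 C or HBR2340 D, 5 were higher.

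Transthyretin-related genes, a large secreted family, had 21 of 45 lower and 7 higher (median −0.45). The gene ttr-17 had 74.6 ± 12.4 CPM in PHX2193 and 428 ± 20.5 CPM in HBR2340 (−2.53 ± 0.12; edgeR Benjamini-Hochberg adjusted p = 3.62e-07), ttr-25 had 4.95, 4.188, 3.40 and 3.04 CPM in PHX2193 A to D, against 22.1, 24.2, 28.6 and 27.6 CPM in HBR2340 A to D (−2.73 ± 0.16), and ttr-47 (−2.09 ± 0.09) and ttr-5 (−1.5 ± 0.08) also fell. For ttr-25 the highest PHX2193 library lay far below the lowest HBR2340 library. Without PHX2193 A, 11 were higher. Galectins, which bind sugars, had 6 of 12 lower, such as lec-5 (−1.68 ± 0.14) and lec-4 (−1.0 ± 0.10), and 2 higher, lec-2 and lec-11 (1.51 ± 0.23).

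Fuel and stores differed at several enzymes. Trehalose, a sugar of stress resistance in worms, is made by tps-1, which had 86.2, 92.0, 94.3 and 70.2 CPM in PHX2193 A to D, against 149, 159.7, 163 and 147 CPM in HBR2340 A to D (−0.86 ± 0.10), and is split by trehalases, of which tre-5 had 30.1, 28.96, 32.6 and 34.5 CPM in PHX2193 A to D, against 5.09, 5.58, 6.66 and 7.66 CPM in HBR2340 A to D (2.33 ± 0.13). Both were separate between strains, one lower and one higher in PHX2193. The trehalase genes tre-3 (1.11 ± 0.12) and tre-4 (−0.75 ± 0.11) also passed, in opposite directions, and the list of 8 had 2 higher and 3 lower. Of 44 genes of glycolysis, gluconeogenesis and the citrate cycle 7 were higher and 11 lower (median −0.04). The gluconeogenesis gene pck-2 had 734, 550.1, 496 and 494 CPM in PHX2193 A to D, against 1905, 1991, 1539 and 1694 CPM in HBR2340 A to D (−1.65 ± 0.15), and the hexokinases that start glycolysis diverged, with hxk-1 at 66.6 ± 7.26 CPM in PHX2193 and 30.3 ± 2.47 CPM in HBR2340 (1.13 ± 0.09) and hxk-2 lower (−0.5 ± 0.08). The isocitrate dehydrogenase subunit gene idhg-2 fell (−1.23 ± 0.13).

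Genes of lipases and fatty acid oxidation had 18 of 48 higher and 7 lower (median 0.13). The fasting-induced lipase gene fil-1 had 32.04, 44.5, 63.9 and 55.3 CPM in PHX2193 A to D, against 10.6, 12.7, 7.88 and 7.97 CPM in HBR2340 A to D, with every PHX2193 library higher (2.31 ± 0.23; edgeR Benjamini-Hochberg adjusted p = 6.05e-05). The acyl-CoA oxidase gene acox-1.1 (1.75 ± 0.22) and the fat store lipase gene atgl-1 (0.66 ± 0.08) rose, and the enoyl-CoA hydratase gene ech-7 fell (−1.36 ± 0.15). Without HBR2340 B or D, 4 were lower. Fatty acid synthesis and desaturation had 4 of 20 in each direction. The desaturase gene fat-6 (0.81 ± 0.13) and the elongase gene elo-1 (0.34 ± 0.09) were higher, and pod-2, the acetyl-CoA carboxylase (−0.55 ± 0.11), and let-767 (−0.5 ± 0.08) were lower. The higher count became 2 without any 1 of 5 libraries (PHX2193 A, B or C, HBR2340 B or C), and the lower count 2 without HBR2340 A.

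Part of the respiratory chain was lower. Of the 12 protein genes of the mitochondrial genome 8 were lower and none higher (median −0.89), among them the NADH dehydrogenase gene ND1 (−0.99 ± 0.27) and WBGene00000829 (−1.03 ± 0.26), WBGene00010964 (−0.65 ± 0.14) and WBGene00010967 (−0.57 ± 0.15), which have no symbol here. WBGene00000829 had 938, 801, 628 and 339 CPM in PHX2193 A to D, against 1449, 1300, 1449 and 1321 CPM in HBR2340 A to D, and PHX2193 D was lowest. Mitochondrial genes took 0.452% to 0.883% of all counts in PHX2193 and 1.11% to 1.44% in HBR2340, and these genes are transcribed together, so they are not independent of each other. The 8 became 4 without HBR2340 A, 3 without HBR2340 C and 2 with no filter on low counts, and the call of ND1 ended without HBR2340 C (edgeR adjusted p = 0.0511). Of 40 nuclear genes of the chain 17 were lower and 1 higher (median −0.20), by less, as in the ATP synthase genes atp-3 (−0.71 ± 0.11), asg-2 (−0.67 ± 0.10) and atp-4 (−0.45 ± 0.08) and nuo-1 (−0.58 ± 0.11). Of 81 cytosolic ribosomal protein genes 2.47% were called, both lower, rpl-41.1 (−0.59 ± 0.12) and rps-16 (−0.72 ± 0.20).

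Detoxification families shifted at individual members. Cytochrome P450 genes had 22 of 60 lower and 9 higher (median −0.26). The gene cyp-33C1 had 2.37, 2.004, 1.35 and 1.98 CPM in PHX2193 A to D, against 13.5, 17.1, 23.9 and 16.8 CPM in HBR2340 A to D (−3.22 ± 0.21), cyp-33C2 (−3.06 ± 0.27) and cyp-13B1 (−2.53 ± 0.22) fell, and cyp-13A8 rose (3.8 ± 0.34). For cyp-33C1 the strains were well apart and HBR2340 C was highest. Glutathione and thiol redox genes had 17 of 59 lower and 10 higher, with gst-15 (−2.22 ± 0.24), gst-41 (−1.79 ± 0.23), gst-36 (−1.36 ± 0.13) and gstk-2 (−0.96 ± 0.10) lower. Glucuronosyltransferases, which tag compounds for export, had 13 of 56 in each direction, with ugt-18 (1.65 ± 0.22) and ugt-44 (1.39 ± 0.17) higher and ugt-12 lower (−2.96 ± 0.41). ABC transporters had 8 of 32 higher, such as mrp-2 (0.63 ± 0.09), pgp-10 (0.63 ± 0.08) and wht-1 (1.05 ± 0.18), and 3 lower, among them pgp-11 (−0.76 ± 0.10), or 5 lower without HBR2340 C. Of the 32, 34.4% were called, against 34.3% of all genes tested, and their median was 0.0.

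At the body surface, cuticle collagens had 23 lower (22.3% of those tested) and 10 higher (9.71%), and 21 of the 23 fell by more than 2-fold. The gene col-98 had 18.4 ± 7.73 CPM in PHX2193 and 204 ± 17.4 CPM in HBR2340 (−3.48 ± 0.30), col-160 fell (−2.22 ± 0.17) and col-181 rose (1.57 ± 0.11). Hedgehog-related and patched-related genes, which act in cuticle and moulting, had 12 of 56 lower and 6 higher (32.1% called, against 34.3% of all genes tested). Of these, ptr-11 (−1.74 ± 0.14) and grd-3 (−3.11 ± 0.32) fell and ptr-22 (1.76 ± 0.12) and ptr-24 (1.05 ± 0.10) rose. Moulting factors had 4 of 19 higher and 3 lower (36.8% called, near the same share), and 5 were lower without HBR2340 C. The higher included mlt-10 (1.28 ± 0.15), bli-3, the dual oxidase that crosslinks cuticle (0.54 ± 0.08), and mlt-7 (0.37 ± 0.08), and the lower included mlt-2 (−0.78 ± 0.14). Of 8 epidermis genes 1 passed, the hormone receptor gene nhr-23 (0.53 ± 0.15), whose call ended without PHX2193 C or HBR2340 D (edgeR adjusted p = 0.0547 and 0.0539). Aquaporins, the water channels, had 4 of 12 lower, aqp-6 (−2.09 ± 0.16) and aqp-2 (−0.83 ± 0.11) among them, and 2 higher, aqp-8 (1.3 ± 0.18) and aqp-1 (0.96 ± 0.14), and without PHX2193 B, HBR2340 A or HBR2340 B, 2 were lower. Globins had 5 of 34 higher and 6 lower (32.4% called), which is near the share over all genes tested. Higher were glb-14 (1.26 ± 0.17), glb-33 (0.59 ± 0.07) and glb-27 (0.58 ± 0.11) among others, and the lower ones were led by glb-1 (−1.95 ± 0.13). Without PHX2193 C or HBR2340 C, 3 were lower.

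Cell division is held off during arrest. Of 33 genes of the cell cycle and DNA replication 4 were higher and none lower (12.1% called, median 0.24). The CDK inhibitor gene cki-1, which keeps cells from dividing in arrested larvae, had 42.4, 53.8, 55.0 and 48.2 CPM in PHX2193 A to D, against 22.4, 21.4, 18.3 and 21.1 CPM in HBR2340 A to D, higher in every PHX2193 library (1.26 ± 0.10; edgeR Benjamini-Hochberg adjusted p = 6.63e-06). Its relative cki-2 (0.66 ± 0.12), the kinase gene cdk-2 (0.38 ± 0.08) and the retinoblastoma gene lin-35 (0.24 ± 0.08) were higher too, and the call of lin-35 ended without any 1 of 7 libraries (edgeR adjusted p of 0.0523 to 0.0999). Histones had 7 of 24 tested higher and 1 lower, the replacement histone H3 genes his-72 (0.77 ± 0.10) and his-71 (0.43 ± 0.09) among them, with his-42 (1.66 ± 0.26) and his-37 (0.43 ± 0.11) from families of near-identical copies whose reads may be shared. Germ cell genes had 1 of 20 higher, mes-4 (0.66 ± 0.23), and 2 lower, mes-6 (−0.75 ± 0.11) and vbh-1 (−0.39 ± 0.12). That is 15% called, against 34.3% of all genes tested, and the median of the 20 was 0.27. The 8 germ cell markers summed to 42.65 to 113.2 CPM in PHX2193 and 69.83 to 81.08 CPM in HBR2340. With single libraries left out, the call of mes-4 held only without PHX2193 A. Without PHX2193 D its log2 fold change was 0.41 (edgeR adjusted p = 0.124). The call of vbh-1 ended without PHX2193 B, HBR2340 B or HBR2340 D (edgeR adjusted p of up to 0.0662). Oocyte and embryo genes had 0 of 10 called by edgeR, 0 at an unadjusted p under 0.05, and 0 by DESeq2 and by limma-voom. Their median log2 fold change was 0.46. The 10 genes summed to 13.6 to 56.54 CPM in PHX2193 and 15.27 to 21.27 CPM in HBR2340. With libraries so spread within PHX2193, the lack of calls does not show equal levels. Of 44 sperm genes msp-76 alone had enough counts, with 26 in PHX2193 and 90 in HBR2340, and its call ended without HBR2340 D (edgeR adjusted p = 0.0503).

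Genes of nuclear hormone receptors and of the F-box and MATH domain families were more often higher than lower. Nuclear hormone receptors, ligand-gated transcription factors that are numerous in this worm, had 63 of 208 tested higher and 18 lower (median 0.18). The gene nhr-193 (2.42 ± 0.19) and nhr-231 (1.52 ± 0.15) rose, and nhr-3 (−1.34 ± 0.11) and nhr-114, a factor of vitamin B12-responsive metabolism, fell, the last with 14.5, 13.8, 13.5 and 11.6 CPM in PHX2193 A to D, against 29.04, 30.6, 31.8 and 31.6 CPM in HBR2340 A to D (−1.21 ± 0.09). No nhr-114 library overlapped between the strains. F-box and MATH domain genes, adaptors that pick proteins for degradation, had 62 of 223 higher and 15 lower (median 0.32), with fbxc-36 (1.28 ± 0.11) and fbxa-44 (1.14 ± 0.11) rising and fbxc-51 (−2.36 ± 0.15) and fbxc-7 (−1.35 ± 0.13) falling. With PHX2193 A and D left out, 41 were higher. Acyltransferases of the oac family had 8 of 20 higher, oac-22 (1.98 ± 0.27), oac-49 (1.07 ± 0.19) and oac-50 (0.92 ± 0.17) among them. Autophagy, lysosome and vacuolar ATPase genes were divided, 10 of 48 higher, as in lgg-2 (0.56 ± 0.09) and epg-9 (0.62 ± 0.08), and 13 lower, as in the proton pump genes vha-5 (−0.84 ± 0.12) and vha-8 (−0.51 ± 0.08). Long intergenic non-coding RNAs had 17 of 73 lower and 6 higher, with linc-30 (−1.47 ± 0.24) and linc-133 (−1.75 ± 0.30) lower and lep-5 (1.64 ± 0.25) and C16C4.19 (1.18 ± 0.18) higher. The 17 became 11 without PHX2193 B. Of 10 mitochondrial chaperone list genes 1 passed, gpd-2 (−0.56 ± 0.16), which is a glycolytic gene, and its call ended without HBR2340 B (edgeR adjusted p = 0.0579).

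**Figure D5:**
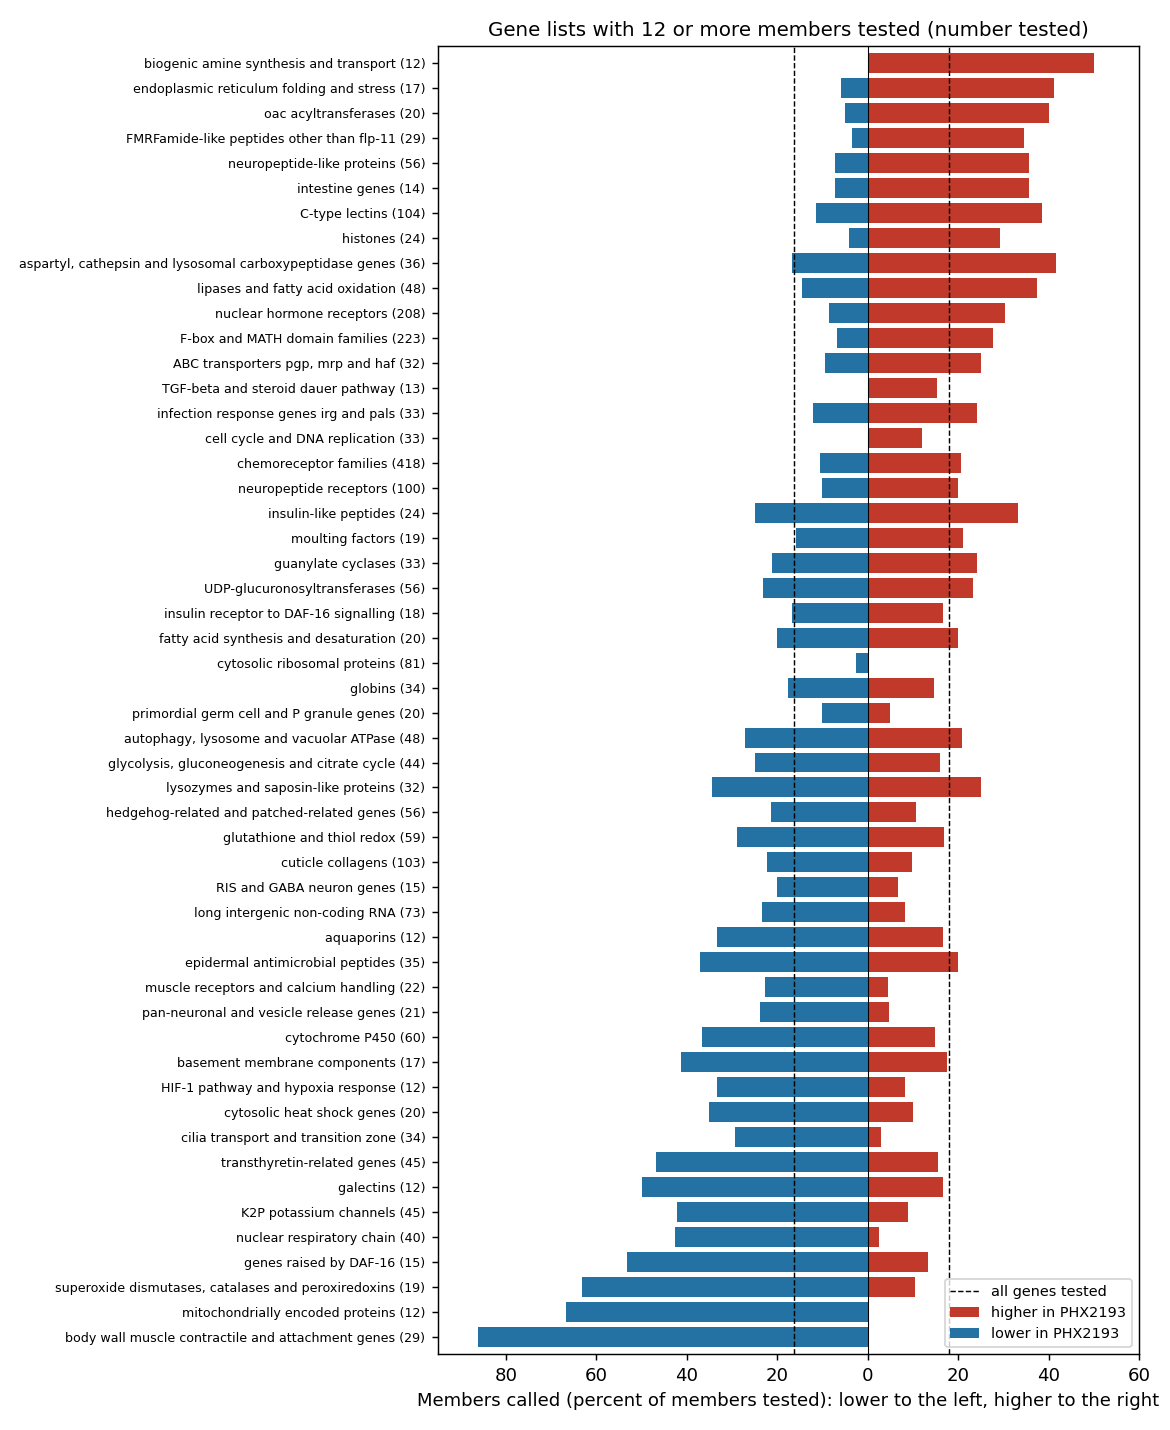
Share of members called (percent of members tested) in each gene list with 12 or more members tested, higher in PHX2193 to the right in red and lower to the left in blue, with dashed lines at the shares over all genes tested (18.1% higher and 16.3% lower). Body wall muscle reaches furthest to the left (86.2%), and biogenic amine genes furthest to the right (50%).

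By chromosome, the share of tested genes called was 29.9% on I, 32.5% on II, 31.8% on III, 32.9% on IV, 38.4% on V and 38.9% on X. On X 24.2% of genes were higher, the largest share of higher genes on any chromosome, and 14.7% lower. Some neighbouring genes moved together, counted as runs of tested neighbours that were all called in one direction by more than 2-fold. The longest had 5 genes and lay on chromosome V. In the run from 14246331 to 14254321, K02E11.3, K02E11.4, K02E11.6, K02E11.5 and K02E11.7 were lower, with log2 fold changes of −3.83 to −1.67. In the run from 16852267 to 16880154, clec-35, clec-32, clec-24, clec-28 and F09C6.3 were higher (1.1 to 3.95), and in the run from 15086913 to 15091114, 5 genes of the C01G10 group were higher (1.46 to 1.91). These genes were chosen by position after their values were known.

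Beside the wild type, PHX2193 was the nearer of the 2 strains at most called genes. On the log2(CPM + 0.1) scale the N2 median lay nearer to the PHX2193 median than to the HBR2340 median in 71.9% of the 5316 called genes (74.9% without N2 B), against 60.3% of all genes tested (63.2% without N2 B). It lay between the 2 strain medians in 4572 of the 5316, beyond PHX2193 in 632 and beyond HBR2340 in the rest. Over all 15488 genes tested, it lay between them in 8526 and beyond PHX2193 in 4052. Called genes were selected for a difference between the strains, so their larger share between the medians is by itself no finding about N2. Both flp-11 and srw-85 were among the exceptions to the nearness of PHX2193, with N2 nearer to HBR2340 in each.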

How the data were processed

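Total RNA of whole larvae was made into Illumina libraries, per the labels' protocols. The authors deposited raw counts of reads per gene, whole numbers for 46934 genes. Bowtie 0.12.2 is named as a tool, and WBcel235 and mm8 (a mouse build) as builds without a role, per the submitters' processing notes. Counting program, strandedness and the treatment of multiply mapping reads: not given in the sources used here. Ribosomal RNA genes took 0.5% to 8.05% of counts in PHX2193 and 0.73% to 6.14% in HBR2340.

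Names and positions were looked up in Ensembl's WBcel235 annotation, where 46924 genes were found. Exons of 83 of the 256 genes named here or in the tables behind the text overlap another gene, so part of their counts is uncertain. In R 4.3.3, filterByExpr (minimum count 10, minimum total 15) kept 15488 genes, and edgeR 4.0.16 fitted a robust quasi-likelihood model with 1 term per strain to the 8 libraries with TMM scaling (6 residual degrees of freedom, biological coefficient of variation 0.179). Tests were two-sided. Genes with an adjusted p under 0.05 (Benjamini-Hochberg, over the 15488 genes) are the called ones. An SE is the size of the log2 fold change over the square root of F. A value after a gene name in parentheses is its log2 fold change ± SE, PHX2193 over HBR2340, n = 4 per strain. CPM were scaled by TMM over all 12 libraries. Counting error alone is in the intervals and floors.

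The members and the 65 gene lists were chosen with earlier results of these data known. Some lists share genes, so their counts are not independent. The named genes are flp-11, unc-58, egl-23 and twk-18, the 15 largest rises and 15 largest falls among called genes that had mean log2 CPM of 1 or more and no overlap of libraries, the 5 most abundant called genes in each direction, and up to 4 called members of each list with the smallest adjusted p. The genes mlc-2, ttn-1, hlh-1, unc-96, mtl-2, icl-1, cat-1, cat-2, dat-1, bas-1 and those in runs on a chromosome were chosen after their values were seen. For the largest rises and falls, separate libraries were a condition of the choice and add nothing to the calls. No set test was made. No 2 libraries of a strain agreed within sampling noise (smallest chi-square per degree of freedom 15.4). The labels call the samples biological replicates. The replicate letters were not used to pair the strains in the main fit. Deviations of same-letter libraries correlated at −0.202 to 0.0188, and those of different letters at −0.239 to 0.225. So few values cannot exclude a batch shared by letter. Alternatives were other scalings and filters, DESeq2 1.42.0, limma-voom (limma 3.58.1), other sets of libraries, a replicate block, thresholds of 0.01 and 0.1, and each library left out in turn.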

Additional observations from a re-analysis of the deposited data

Results flagged for a closer look

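Among the 256 genes named, 26 of 512 groups of 4 libraries had 1 library far from the others, where chance alone gives about 1 in 20. The value given for each is the library's gap to its nearest neighbour as a share of the group's range. HBR2340 C was the highest library of its strain for F40G12.5 (0.954), ND1 (0.900), cnc-11 (0.846), itr-1 (0.898), nphp-4 (0.953), phat-8 (0.979), rps-16 (0.901) and unc-31 (0.887). It was the lowest for asg-2 (0.834), cki-2 (0.836), fbxa-44 (0.984), nhx-2 (0.852), npr-20 (0.843) and pod-2 (0.838). HBR2340 A was highest for C09F12.2 (0.8291) and idhg-2 (0.841) and lowest for Y62F5A.10 (0.836) and mlt-7 (0.937), and HBR2340 D was lowest for cyp-13A8 (0.908). In PHX2193, library A was highest for mtl-1 (0.954), pdk-1 (0.871) and thn-1 (0.851), C was lowest for ins-10 (0.859) and highest for linc-30 (0.924), and D was highest for fipr-1 (0.869) and ugt-49 (0.879).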

How the results depend on the processing

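The 5316 calls became 3106 (1612 higher, 1494 lower; 3041 shared) when all 12 libraries were fitted together, which adds the spread of N2 B, and 3377 (1776 higher, 1601 lower) at an adjusted p under 0.01. Leaving out each library in turn gave 4406 (without HBR2340 D) to 5504 (without PHX2193 A) calls. The other settings stayed within 1.5 times: 5339 without N2 B in an 11-library fit, 5703 with DESeq2, 5370 with limma-voom, 5433 with upper quartile factors (3074 higher, 2359 lower), 5198 with no filter, 4879 with a replicate block (4717 shared), and 5266 with PHX2193 A and D left out, a setting chosen after seeing the data. The log2 fold change of egl-23 passed at −0.38 with DESeq2 size factors (edgeR adjusted p = 0.0493) and with DESeq2 (0.0371), at −0.37 with no filter (0.0205) and with a threshold of 0.1, and ran from −0.43 to −0.26 without single libraries. Of 254 called named genes none reversed in the 21 settings, 12 lost the call without some single library, 47 with all 12 libraries and 4 with the replicate block. The family counts were mostly smaller in the fit of all 12 libraries. Genes near the level of 3 counts have imprecise folds, and the 31446 genes removed for low counts were not tested.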
